A study of Mus musculus with 12 samples.

Results

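In all, 10 cytokine feedback genes were followed through brain and liver of aged, heat-stressed mice. They are the suppressors of cytokine signaling Socs1, Socs2, Socs3, Socs4, Socs5, Socs6 and Socs7, the related Cish, and the kinase genes Pim1 and Pim3. All 10 were found by symbol among the 25239 genes of the count table. The group was chosen by the liver counts of Socs3 and Pim3, which were higher under heat stress, so that the comparison of heat stress with control in liver is described below without a test for every gene. Male C57BL6/J wild type mice of 24 months were held at 40 ± 0.5 °C and 60% relative humidity for 3 hours per day over 15 days, and control mice of the same strain, sex and age were not. Messenger RNA of the tissues was sequenced from 3 control and 3 heat stress libraries in brain and the same in liver, 12 libraries in all. The labels do not say whether a brain and a liver library with the same number came from 1 mouse, and p-values therefore measure the spread between these libraries.

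Cytokines that bind receptors without a kinase of their own activate Janus kinases (JAKs), which phosphorylate STAT transcription factors. STATs switch on target genes, among them Cish and several Socs genes. The CIS and SOCS proteins bind phosphorylated receptors or JAKs through an SH2 domain and recruit a ubiquitin ligase through the SOCS box, which closes a negative feedback loop. PIM proteins are serine/threonine kinases that are active without phosphorylation by another kinase, so that their activity follows their amount. Their genes are STAT targets as well, and they favor cell survival and growth. In hepatocytes, interleukin 6 acting through STAT3 is known for inducing Socs3 together with acute phase proteins, and growth hormone acting through STAT5 is known for inducing Cish and Socs2.

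The total count was between 10466198 and 15609040 per library, and a count of 0 allows up to 3 counts, which is 1.92e-05% of the deepest and 2.87e-05% of the shallowest library, counting error only. Liver libraries held hepatocyte markers and brain libraries neuron markers at high level, with summed levels of 74121 to 120542 CPM (counts scaled to a common library size) for 6 hepatocyte genes in liver and 5095 to 6778 CPM for 6 neuron genes in brain. A pair of liver libraries stood apart by skeletal muscle transcripts. The summed level of 10 muscle genes was 431 CPM in liver control 1 and 2401 CPM in liver heat stress 2, against 1.03 to 7.73 CPM in the other 4 liver libraries. Liver control 1 also held 20.9 CPM of 4 oligodendrocyte genes, and the lowest liver library held 2.84 CPM. The liver fold changes of Socs3, Cish, Pim3 and Pim1 are therefore given with and without both libraries. For the other genes, no fit without both is given. In whole tissue, fewer cells of a type and less RNA per cell cannot be told apart.

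The promoters of Socs3 and Pim3 are shown because these genes defined the group and because a STAT site in the promoter is the textbook route to Socs3. Sequences were taken from the RefSeq promoter table on GRCm38.p6, which covers 250 bases before a start site and held 6 of the 10 genes (Socs1, Socs3, Socs4, Cish, Pim1 and Pim3). Only the stretch that touches no annotated exon is printed, 5′ to 3′ on the strand of the gene. Capitals mark the STAT motif TTCNNNGAA, which reads the same on both strands. The Socs3 stretch lies at chr11:117969452-117969616 on the minus strand, from position -250 to -86 from the start site, and its GC content was 70.3%. It lies inside the Socs3 gene span of GENCODE M21, which begins farther upstream. The Pim3 stretch lies at chr15:88861944-88862185 on the plus strand, from position -250 to -9 from the start site, and its GC content was 67.4%.
Socs3: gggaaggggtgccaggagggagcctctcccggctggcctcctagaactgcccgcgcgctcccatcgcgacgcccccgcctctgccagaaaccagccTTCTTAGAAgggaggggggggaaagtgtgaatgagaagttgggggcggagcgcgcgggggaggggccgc
Pim3: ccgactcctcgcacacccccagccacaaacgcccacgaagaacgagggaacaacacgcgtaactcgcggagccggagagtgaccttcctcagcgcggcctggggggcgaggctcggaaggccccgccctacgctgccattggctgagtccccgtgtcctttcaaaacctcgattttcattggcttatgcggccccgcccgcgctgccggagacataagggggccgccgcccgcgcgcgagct

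The Socs3 promoter held 1 STAT motif, TTCTTAGAA, at positions -154 to -146 from the start site. These letters were in 7.02% of the 32851 promoter windows of the table. The windows of Pim3, Socs1, Socs4, Cish and Pim1 did not hold them. The window of Cish lies at chr9:107296409-107296658, within the annotated span of the gene, and bases before that span were not searched. Besides, the E-box CACGTG (6.02% of windows) was found at positions -58 to -53 from the start site in 1 of the windows of Pim1, and the paired heat shock motif GAANNTTC (6.69% of windows) in no window of these genes. That window of Pim1 lies at chr17:29492835-29493084, within the annotated span of the gene. The E-box and the paired heat shock motif read the same on either strand. A match of letters is a description and says nothing of binding.

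In heat-stressed liver, the members that stood clear of the control libraries were Socs3, Cish and Pim3. Socs3 was 2.66-fold, Cish 2.35-fold and Pim3 1.96-fold the control level, and every heat stress library was above every control library for each of them. Levels are given as CPM normalized by the trimmed mean of M values (TMM) within the tissue, and fold changes come from the edgeR fit of the 6 libraries. Of the 9 members with enough counts for the fit, 3 were higher with no overlap between the groups, none was lower with no overlap, and 6 overlapped. Over all 12296 genes fitted in liver, 5.38% were higher and 5.73% lower with no overlap. The log2 fold change was above 1 in 2 members and in 1.32% of all genes. Nothing is read from these shares, because this contrast chose the members. The median log2 fold change was 0.34 over the 9 members and 0.011 over all genes fitted.

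**Figure D1:**
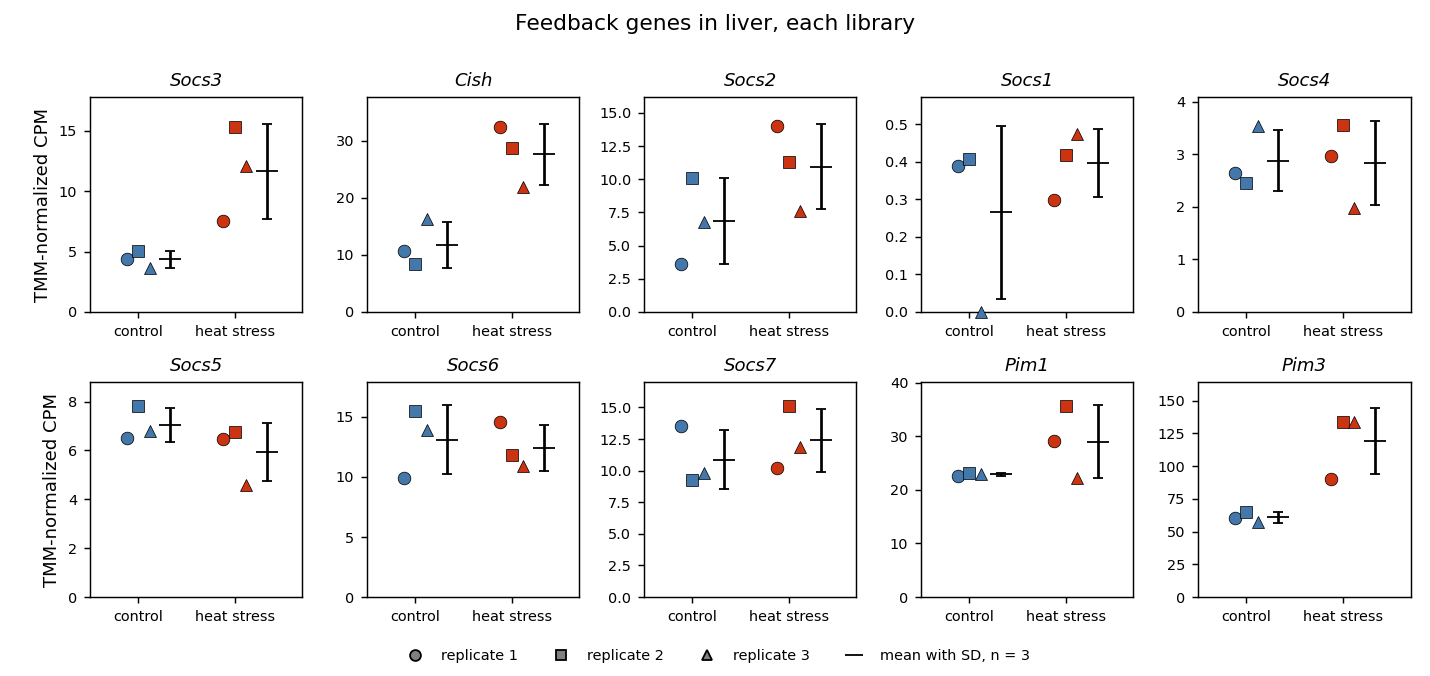
TMM-normalized CPM (vertical axis, linear from 0, own scale per gene) of the 10 genes in the 3 control (blue) and 3 heat stress (red) liver libraries, with symbol shape for the replicate number and a bar for mean and SD. The red symbols lie above all blue symbols for Socs3, Cish and Pim3, while the groups overlap for the other genes.

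Positions are those of GENCODE M21 on GRCm38. Socs3 (chr11:117966079-117970047, minus strand), whose protein blocks signaling from receptors that share the gp130 chain, was at 4.39, 5.06 and 3.63 CPM in the control liver libraries and at 7.52, 15.3 and 12.1 CPM under heat stress. These levels rest on 39 to 68 reads in control and 101 to 220 reads in heat stress libraries. The lowest heat stress library, replicate 1, was still above the highest control library, and replicate 2 was at 15.3 CPM. The mean level went from 4.36 ± 0.711 to 11.6 ± 3.92 CPM (SD, n = 3), and the log2 fold change was 1.41 (SE 0.29, 95% interval 0.77 to 2.05). Replicate 2, the highest for Socs3, is the library with the most muscle transcripts. Without both muscle-bearing libraries the log2 fold change of Socs3 was 1.15.

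Cish (chr9:107296026-107302784, plus strand) encodes CIS, which binds activated receptors of growth hormone, erythropoietin and other STAT5-activating cytokines. Its level in control liver was 10.7, 8.40 and 16.3 CPM and in heat-stressed liver 32.4, 28.7 and 21.8 CPM. Control replicate 3 stood highest and heat stress replicate 3 lowest in their groups, and the groups were still apart. The mean level was 11.8 ± 4.07 CPM in control and 27.6 ± 5.35 CPM in heat-stressed liver (SD, n = 3), a log2 fold change of 1.23 (SE 0.26, 95% interval 0.65 to 1.82). It was 1.12 without the libraries that held muscle transcripts. Cish has antisense gene models on the opposite strand in the annotation, and the strand setting of the counting is not given in the sources used here, so that reads of both could have been counted together.

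Socs2, the other growth hormone-induced member, was at 3.61, 10.1 and 6.80 CPM in control and at 14.0, 11.3 and 7.57 CPM in heat-stressed liver. The groups overlapped, because control replicate 2 was above heat stress replicate 3. The log2 fold change was 0.69 (SE 0.36, 95% interval -0.12 to 1.49). A single library moved this value, which was 0.36 without control replicate 1 and 1.08 without control replicate 2. Socs1, which silences interferon-γ signaling by inhibiting JAKs, was at the limit of detection. It had 6, 5 and 0 reads in the control and 4, 6 and 6 reads in the heat stress libraries of liver, and it was left out of the fit.

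Socs4, Socs5, Socs6 and Socs7 have long N-terminal regions and are linked mainly to growth factor and insulin receptor signaling rather than to STAT feedback. In liver, the groups overlapped for each of these genes. Socs4 was between 2.45 and 3.54 CPM in control and between 1.97 and 3.55 CPM under heat stress, a log2 fold change of -0.012 (SE 0.32). Socs5 was between 6.52 and 7.83 CPM in control and between 4.57 and 6.76 CPM in heat-stressed liver, a log2 fold change of -0.24 (SE 0.23). For Socs6 the range was 9.94 to 15.5 CPM in control and 10.9 to 14.6 CPM under heat stress, and the log2 fold change was -0.071 (SE 0.22). Socs7 ran from 9.30 to 13.6 CPM in control and from 10.2 to 15.1 CPM in heat-stressed liver, with a log2 fold change of 0.19 (SE 0.23).

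Of the PIM kinases, Pim3 (chr15:88862186-88865726, plus strand) was the most abundant of the 10 genes in liver per length of transcript. Its level was 60.1, 65.3 and 57.4 CPM in control and 90.0, 134 and 134 CPM in heat-stressed liver. These levels rest on 616 to 931 reads per control and 1209 to 1923 reads per heat stress library. The control libraries lay close together, and heat stress replicate 1 was the lowest of its group, as it was for Socs3. The mean level was 60.9 ± 4.02 CPM in control and 119 ± 25.4 CPM under heat stress (SD, n = 3), and the log2 fold change was 0.97 (SE 0.20, 95% interval 0.53 to 1.41). It was 0.85 without the muscle-bearing libraries. Pim1 (chr17:29490753-29496112, plus strand), a classic target of STAT3 and STAT5, was at 22.6, 23.1 and 23.0 CPM in control and at 29.2, 35.7 and 22.2 CPM in heat-stressed liver. Heat stress replicate 3 was below the control libraries, which were almost equal, and the other two were above them. The log2 fold change of Pim1 was 0.34 (SE 0.20, 95% interval -0.10 to 0.78), and 0.14 without the muscle-bearing libraries. An antisense gene model lies on the opposite strand of Pim1 as well, and Socs6 overlaps other gene models, also on the opposite strand.

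Some liver columns carry the suffix "2nd", which no source explains (control 2, heat stress 1 and heat stress 3). Within the libraries without it (2 control, 1 heat stress) the log2 ratio of mean CPM was 1.93 for Socs3, 1.09 for Cish and 1.19 for Pim3. Within the libraries with it (1 control, 2 heat stress) the log2 ratio was 0.95 for Socs3, 1.69 for Cish and 0.78 for Pim3. Each side rests on a single library in 1 of its groups. Socs2 had a log2 ratio of 1.12 without and 0.093 with the suffix.

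Of the sums over 5 lists of immune cell markers, those of T and NK cells and of microglia were apart between the liver groups. The summed level of 7 T and NK cell genes was 1.36 to 4.08 CPM in control and 6.76 to 14.3 CPM in heat-stressed liver, and all 7 genes had a count in every liver library. It was highest in heat stress replicate 1, the library in which Cish was highest and Socs3 and Pim3 were lowest among the heat stress libraries. A list of 6 microglia genes, which liver macrophages share in part, summed to 57.1 to 72.3 CPM in control and 73.7 to 112 CPM in heat-stressed liver. The list of 8 Kupffer cell and macrophage genes overlapped, at 140 to 212 and 182 to 291 CPM. Sums of 5 neutrophil genes (1.16 to 7.502 and 3.07 to 5.96 CPM) and of 4 B and plasma cell genes (8.004 to 19.9 and 11.7 to 26.7 CPM) overlapped as well, control first. Gene by gene, 2 of 4 T and NK cell genes fitted were higher with no overlap. The same held for 2 of 5 microglia and 2 of 8 Kupffer cell and macrophage genes fitted, and none was lower. The microglia list shares Csf1r and C1qa with the Kupffer cell and macrophage list. Over all liver genes fitted, 5.38% were higher and 5.73% lower in this way. The part of these cells in the liver values was not tested.

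The genes whose liver pattern was most like that of Socs3 were Cebpd, Pim3, Cebpb, Csrnp1 and Gstm3, in that order. Likeness was measured as the root mean square difference of log2 CPM, centered over the 6 liver libraries, among 12296 genes, and it was 0.24 for Cebpd, 0.25 for Pim3, 0.25 for Cebpb, 0.25 for Csrnp1 and 0.28 for Gstm3. A flat profile would be 0.74 from Socs3. Cebpb and Cebpd encode C/EBP transcription factors of the acute phase response, and Csrnp1 encodes a nuclear protein induced by axin. Gstm3 encodes a glutathione transferase. For Pim3 the nearest were Plekhg5 at 0.10, Csrnp1 at 0.12, Scarf2 at 0.13, Cebpd at 0.13 and Cebpb at 0.14, against 0.51 for a flat profile. Scarf2 encodes a scavenger receptor. Pim3 was the second nearest gene to Socs3, while Socs3 ranked 50 in likeness to Pim3. Cish followed another order of libraries and ranked 585 for Socs3 and 3313 for Pim3. All these genes share the 6 libraries, and the ranks describe them only.

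**Figure D2:**
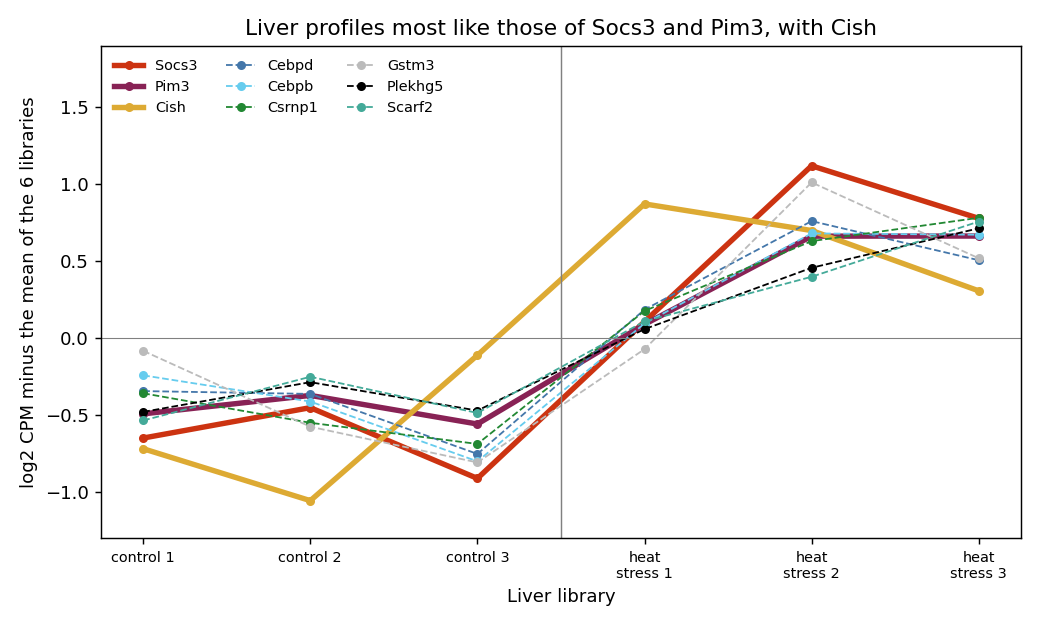
Log2 CPM of Socs3, Pim3 and Cish (thick lines) and of the genes most like Socs3 or Pim3 (thin broken lines) in each of the 6 liver libraries, minus the gene's own mean over them; lines only join the values of a gene, and the libraries have no order. Socs3 and Pim3 share their lowest heat stress library, replicate 1, which is the highest library of Cish.

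Heat stress in brain was a separate set of libraries that had no part in choosing the genes. No member passed the test there. In the quasi-likelihood test of edgeR, adjusted by Benjamini-Hochberg, 0 of 9 members and 0% of the 14806 genes tested had an adjusted p under 0.05, and the smallest adjusted p of any gene was 0.170. At an unadjusted p under 0.05, 1 member was higher and 1 lower, where 10% of all genes were higher and 10% lower. DESeq2 called 540 genes in brain and none of the members, and it gave no adjusted p for Socs3, Cish and Pim1. With no overlap between groups, 1 member was higher and 1 lower, against 12.9% and 12% of all genes tested. The median log2 fold change of the members was -0.13, and that of all genes tested was -0.0030.

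**Figure D3:**
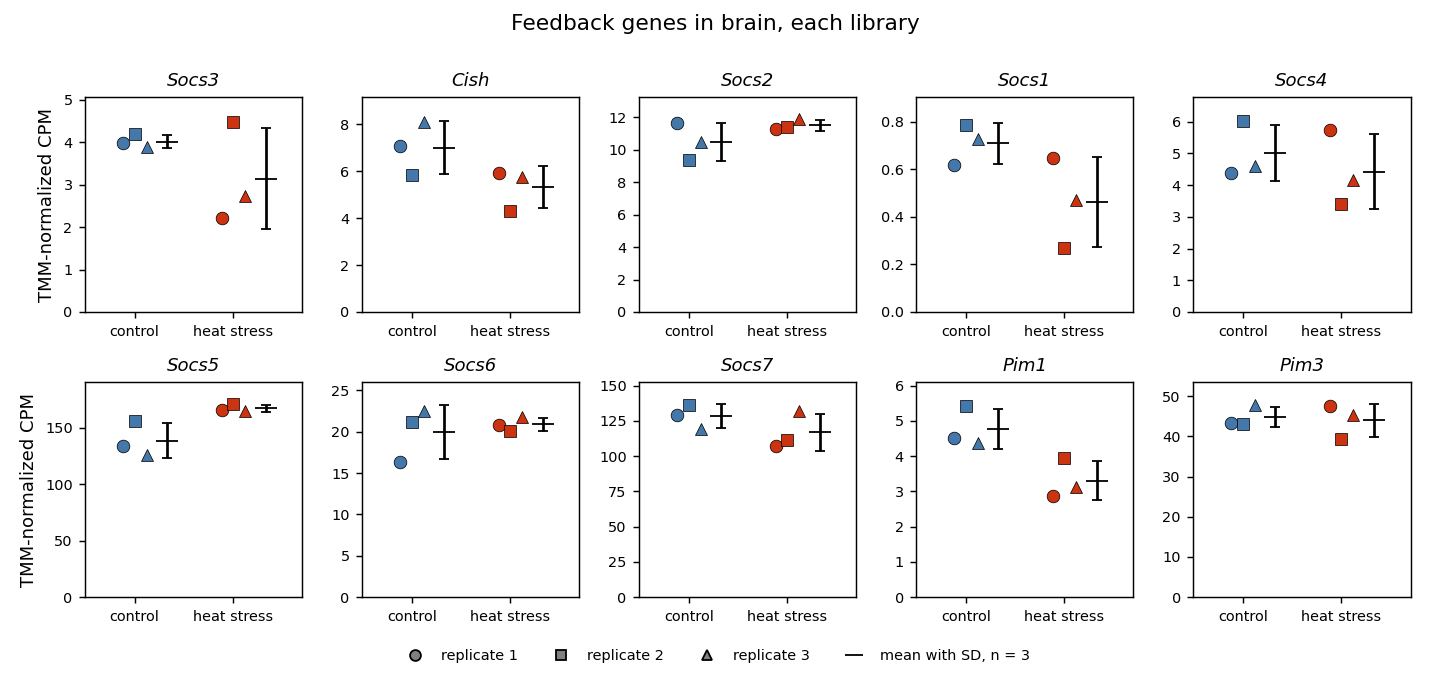
TMM-normalized CPM (vertical axis, linear from 0, own scale per gene) of the 10 genes in the 3 control (blue) and 3 heat stress (red) brain libraries, with symbol shape for the replicate number and a bar for mean and SD. Socs5 lies higher and Pim1 lower under heat stress with no overlap, and the groups overlap for the other genes, Pim3 at 39.4 to 47.8 CPM included.

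The members that stood apart in liver overlapped between the groups in brain. Socs3 was at 3.98, 4.19 and 3.89 CPM in control and at 2.22, 4.48 and 2.74 CPM in heat-stressed brain. Heat stress replicate 2 was above all control libraries and the other two were below them, with a log2 fold change of -0.35 (SE 0.29, adjusted p = 0.514). Cish was at 7.06, 5.85 and 8.09 CPM in control and at 5.91, 4.30 and 5.76 CPM in heat-stressed brain. Heat stress replicate 1 reached just above the lowest control library, and the log2 fold change of Cish was -0.40 (SE 0.22, adjusted p = 0.329). Pim3 was at 43.5, 43.2 and 47.8 CPM in control and at 47.5, 39.4 and 45.2 CPM in heat-stressed brain. The groups covered the same range, and the log2 fold change of Pim3 was -0.025 (SE 0.11, 95% interval -0.28 to 0.23, adjusted p = 0.920).

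Pim1 and Socs5 were the members whose brain groups did not overlap. Pim1 was at 4.52, 5.41 and 4.37 CPM in control and at 2.86, 3.94 and 3.12 CPM in heat-stressed brain, from 31 to 66 reads per library. Each heat stress library was below each control library, the log2 fold change was -0.52 (SE 0.23), and the unadjusted p of 0.0488 became 0.248 after adjustment. Socs5 (chr17:87107679-87137839, plus strand), whose protein targets the epidermal growth factor receptor, was the most abundant member in brain per length of transcript. Its level was 134, 156 and 126 CPM in control and 166, 171 and 165 CPM in heat-stressed brain, from 1552 to 1953 reads per library. The heat stress libraries lay close together above all control libraries, the log2 fold change was 0.27 (SE 0.12), and the unadjusted p of 0.0416 became 0.235 after adjustment.

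The other members overlapped between the brain groups. Socs7, which binds adaptor proteins of insulin signaling, was at 130, 136 and 119 CPM in control and at 107, 111 and 132 CPM under heat stress, a log2 fold change of -0.13 (SE 0.12, adjusted p = 0.541). Socs2 had a log2 fold change of 0.13 (adjusted p = 0.642), Socs4 of -0.17 (adjusted p = 0.727) and Socs6 of 0.064 (adjusted p = 0.830). Their levels ran from 9.34 to 11.9 CPM for Socs2, from 3.40 to 6.02 CPM for Socs4 and from 16.3 to 22.5 CPM for Socs6 over the 6 brain libraries. Socs1 had 9 reads in each control library and 7, 3 and 5 reads in the heat stress libraries, too few for the test.

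Some cell type markers moved with the brain groups too. The summed level of 6 endothelial genes was 113 to 225 CPM in control and 73.1 to 93.8 CPM in heat-stressed brain, and that of 6 choroid plexus genes was 1245 to 2478 CPM in control and 259 to 1126 CPM under heat stress. All genes of both lists had a count in every brain library, and the groups did not overlap in either sum. Gene by gene, 5 of 6 endothelial and 3 of 6 choroid plexus genes were lower with no overlap, and none was higher. Over all brain genes tested, 12.9% were higher and 12% lower in this way. The choroid plexus list also summed to 6074 to 10773 CPM in liver, so that its sum is not particular to that tissue. It shares the gene Ttr with the hepatocyte list. In brain the hepatocyte list summed to 1165 to 2327 CPM in control and 230 to 1072 CPM under heat stress, close to the choroid plexus sums. Both sums can therefore rest largely on that gene. Markers of striatum, which differ between brain regions, summed to 371 to 662 CPM in control and 661 to 1427 CPM under heat stress. These sums overlapped, and 3 of 8 striatum genes were higher with no overlap. Endothelial markers and Pim1 were both lower in the heat stress libraries, a pattern shared by 12% of all genes tested in brain. The part of these cell types in the brain values was not tested.

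The heat stress differences of both tissues were set against each other in a single fit of all 12 libraries. The difference, liver minus brain on the log2 scale, was 1.75 for Socs3 (SE 0.43, 95% interval 0.82 to 2.68), 1.62 for Cish (SE 0.36, interval 0.85 to 2.39) and 0.99 for Pim3 (SE 0.24, interval 0.46 to 1.51). It was 0.86 for Pim1 (SE 0.29, interval 0.23 to 1.49), whose log2 fold change was 0.34 in liver and -0.52 in brain. For Socs5 it was -0.53 (SE 0.23, interval -1.03 to -0.024). The values were 0.57 for Socs2, 0.15 for Socs4, -0.14 for Socs6 and 0.30 for Socs7. These differences hold the liver contrast and are a description, and the intervals show their error only.

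**Figure D4:**
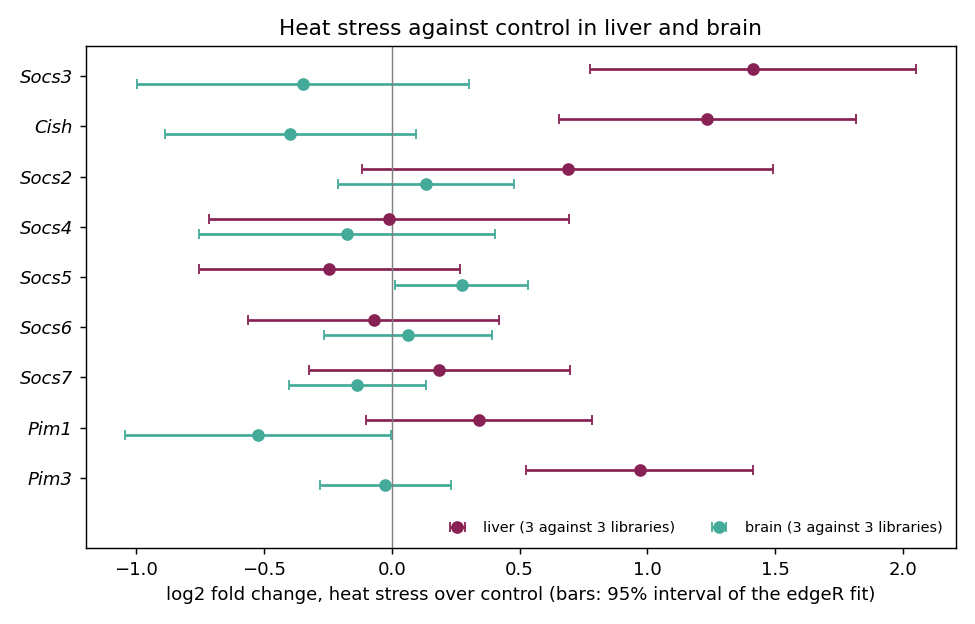
Log2 fold change of heat stress over control (horizontal axis) for the 9 members fitted, in liver (purple) and brain (green), with the 95% interval of the edgeR fit as bars, 3 against 3 libraries. The liver points of Socs3, Cish and Pim3 lie at 1.41, 1.23 and 0.97, their brain points at -0.35, -0.40 and -0.025, and the liver values are a description.

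Levels were next compared between tissues in the control mice alone. Since the control liver counts of Socs3 and Pim3 were part of the choice of the group, their values are a description. In edgeR's quasi-likelihood test of 3 control liver against 3 control brain libraries, Pim1 and Cish passed as higher and Socs5 and Socs7 as lower in liver, where 35.5% of all 15213 genes tested were higher and 42.8% lower. Pim1 had the largest difference, a log2 fold change of 3.38 (SE 0.19, adjusted p = 2.66e-07), from 3.25 ± 0.361 CPM in brain to 33.9 ± 1.98 CPM in liver (SD, n = 3, normalized over the 6 control libraries). Cish was higher in liver by 1.86 on the log2 scale (SE 0.28, adjusted p = 0.000189). The log2 fold change was 1.56 for Pim3 (SE 0.17) and 1.24 for Socs3 (SE 0.25), with every control liver library above every control brain library for both. Socs5 was lower in liver, with a log2 fold change of -3.18 (SE 0.19, adjusted p = 3.26e-07), from 94.4 ± 9.97 CPM in brain to 10.4 ± 0.650 CPM in liver. Socs7 had a log2 fold change of -2.42 (SE 0.23, adjusted p = 7.04e-06).

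Socs6, Socs2 and Socs4 did not pass this test. Their log2 fold changes, control liver over control brain, were 0.49 (adjusted p = 0.0524), 0.47 (adjusted p = 0.194) and 0.31 (adjusted p = 0.316). Without liver control 1, which held muscle and neural transcripts, Socs6 passed with an adjusted p of 0.0117 and Socs2 with 0.0124. Socs6 also passed in the joint fit of all 12 libraries with 0.0242, and with the replicate number as a block (value given below). The log2 fold change fell to 0.11 for Socs2 without liver control 2, and to 0.32 for Socs6 without brain control 1. The 15213 genes tested had a median log2 fold change of -0.20 and the members one of 0.49. Of the lists around the loop, 16 of 22 receptor genes tested were higher in control liver and 3 lower, 2 of 4 JAK genes higher and 1 lower, 2 of 10 other inhibitors higher and 4 lower, and 2 of 6 SOCS box partners higher and none lower. These counts stand beside 35.5% higher and 42.8% lower over all genes tested.

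The same tissue comparison was repeated in the heat stress mice, which are other libraries. Of the members other than Socs3 and Pim3, 4 were higher in liver and 2 in brain, where 37.9% and 43.1% of the 15296 genes tested passed in these directions. Pim1 was higher in liver by 4.30 (SE 0.23, adjusted p = 6.86e-09) and Cish by 3.55 (SE 0.21, adjusted p = 1.77e-08) on the log2 scale. Socs2 was higher in heat-stressed liver than in heat-stressed brain by 1.11 (SE 0.23, adjusted p = 0.000728). Socs5 was lower by 3.63 (adjusted p = 3.09e-09) and Socs7 by 2.06 (adjusted p = 4.41e-07) in liver. Socs6 was higher in liver by 0.43 (adjusted p = 0.0318), a call that 6 of 7 other settings did not keep (adjusted p 0.0548 to 0.159) and that was also lost on leaving out any of 5 of the 6 libraries, and Socs4 had a log2 fold change of 0.54 (adjusted p = 0.136). The log2 fold changes of Socs3 and Pim3 were 3.06 and 2.61 in these libraries, given as a description.

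Levels were compared between genes as CPM per kilobase of annotated exons, normalized over all 12 libraries. In control brain, Socs5 at 14.8 ± 1.55, Pim3 at 12.6 ± 0.813 and Socs7 at 12.1 ± 0.722 CPM per kb stood far above the rest (SD, n = 3), and each overlapped with its neighbor. Next came Socs6 at 1.21, Pim1 at 0.970, Socs3 at 0.951, Socs2 at 0.752, Cish at 0.747, Socs4 at 0.498 and Socs1 at 0.167 CPM per kb. Of these neighbors, Socs6 and Pim1, Pim1 and Socs3, and Socs2 and Cish overlapped in range. The order was led by the same 3 genes in heat-stressed brain, where Socs5, at 17.7 ± 0.285 CPM per kb, no longer overlapped with Pim3 at 12.3 ± 1.17 CPM per kb.

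In control liver the order was another. Pim3 was first at 37.0 ± 2.98 and Pim1 next at 10.04 ± 0.595 CPM per kb, and neither overlapped with another member. Cish at 2.70 ± 0.893, Socs7 at 2.23 ± 0.649, Socs3 at 2.22 ± 0.374, Socs6 at 1.69 ± 0.265 and Socs5 at 1.62 ± 0.101 CPM per kb formed a chain in which each overlapped with its neighbor. Socs2 at 1.04, Socs4 at 0.616 and Socs1 at 0.137 CPM per kb were lowest. Under heat stress Pim3 was at 71.6 ± 16.0, Pim1 at 12.6 ± 3.21, Cish at 6.27 ± 1.24 and Socs3 at 5.88 ± 2.10 CPM per kb. Socs3 and Cish overlapped with each other and stood clear of Socs7, the next gene, at 2.49 ± 0.561 CPM per kb. The exon lengths join all isoforms of a gene, from 2427 bases in Pim3 to 11349 bases in Socs6, so that genes with long alternative ends appear lower than they are.

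**Figure D5:**
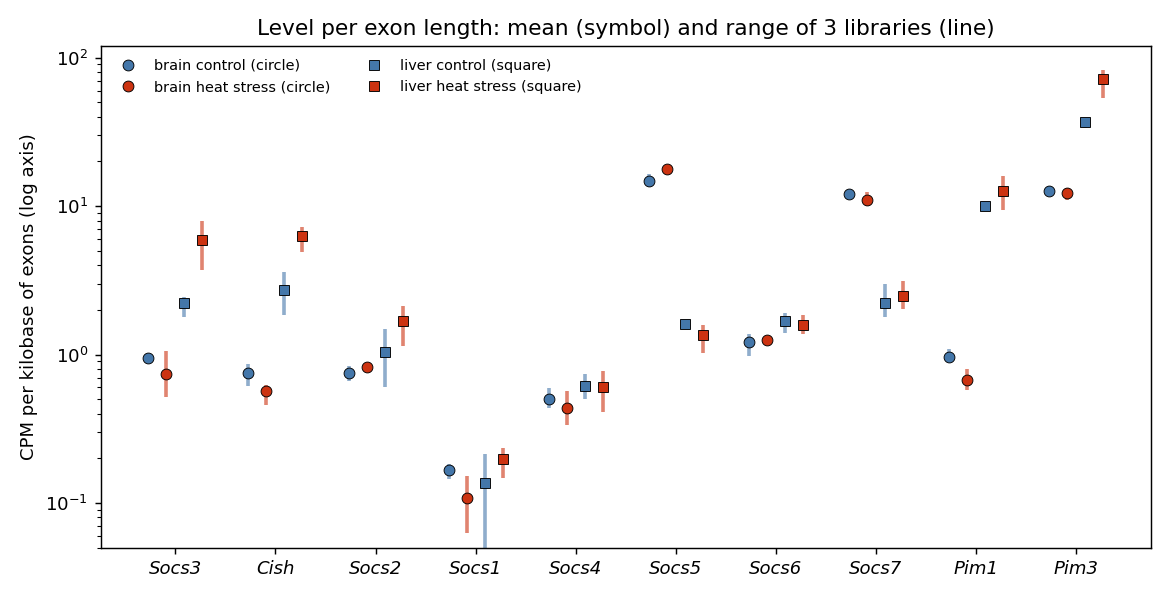
CPM per kilobase of exons (vertical log axis) of the 10 genes in control (blue) and heat stress (red) libraries of brain (circles) and liver (squares); symbols are means and lines the range of 3 libraries, cut at the lower edge for Socs1 in control liver, where 1 library had no read. Socs5 and Socs7 are higher in brain, Pim1, Pim3, Cish and Socs3 in liver, and Socs1 is lowest in every group.

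The genes around the feedback loop were counted from lists of the pathway, first upstream of the members. In liver, of 22 cytokine genes only 3 had enough counts for the fit, and Il15 was higher with no overlap, at 1.97 ± 0.168 CPM in control and 3.05 ± 0.397 CPM in heat-stressed liver. Il6 itself had a mean of 0.0215 CPM in control and 0.178 CPM in heat-stressed liver, near or at a count of 0. The 3 fitted cytokine genes had a median log2 fold change of 0.33. Of 23 receptor genes fitted, 2 were higher and 2 lower with no overlap, where 5.38% of all liver genes were higher and 5.73% lower in this way, and the largest difference was a log2 fold change of 0.65 in Il2rg, the common γ chain, whose groups overlapped. None of 4 JAK genes had groups that did not overlap, and the largest log2 fold change was 0.12 in Jak3, the lymphocyte JAK. Stat3, the factor that drives Socs3, was at 59.3 ± 7.77 CPM in control and 66.7 ± 2.54 CPM in heat-stressed liver. Median log2 fold changes were 0.15 for receptors and 0.0089 for JAKs, with 0.011 over all genes.

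Inhibitors of JAK and STAT signaling outside the SOCS family were counted in the same way, beside the 5.38% of liver genes that were higher and the 5.73% that were lower with no overlap. Of 10 fitted in liver, with a median log2 fold change of 0.13, Sh2b3, an adaptor that restrains JAK2, was higher with no overlap, at 12.8 ± 1.34 CPM in control and 17.7 ± 0.859 CPM under heat stress. Usp18, which blocks the interferon receptor, had the largest log2 fold change at 0.80 (SE 0.28), with groups that overlapped. None of the 6 partners that link the SOCS box to ubiquitin differed without overlap, and their median was -0.20, with Eloc at -0.33. Of 10 genes fitted from a list of partners and substrates of PIM kinases, 2 were higher with no overlap and the median was 0.22. That list also holds the kinase gene Pim2, at 1.12 to 3.68 CPM in control and 2.21 to 3.07 CPM in heat-stressed liver, with overlap. Foxo3 had the largest log2 fold change, 0.44 (SE 0.27), with overlap.

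Targets of the same STATs were described next, to be read beside the 5.38% of liver genes that were higher and the 5.73% that were lower with no overlap. Of 23 acute phase genes fitted in liver, 3 were higher (Orm2, Orm3 and Hamp) and 1 lower (Crp) with no overlap, and the median log2 fold change was 0.36. Orm2, which encodes a plasma glycoprotein, was at 13.3, 9.70 and 9.78 CPM in control and at 22.5, 17.1 and 36.0 CPM in heat-stressed liver, a log2 fold change of 1.20 (SE 0.28). Among 12 early response genes, Junb, Cebpb, Cebpd and Myc were higher with no overlap, none was lower, and the median log2 fold change was 0.13. Junb was at 25.95, 88.3 and 106 CPM in control and at 114, 173 and 117 CPM in heat-stressed liver. Its lowest control and its highest heat stress library were the muscle-bearing ones. Myc was at 1.55, 2.04 and 5.22 CPM in control and 7.15, 9.41 and 7.73 CPM in heat-stressed liver, a log2 fold change of 1.49 (SE 0.40), and of 2.17 without control replicate 3, the highest of its group. Cebpb had a log2 fold change of 0.97 (SE 0.22) and a mean of 61.2 ± 11.7 CPM in control and 120 ± 26.0 CPM under heat stress.

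Cish and Socs2 are growth hormone and STAT5 targets, and 11 other such targets were looked up. Of the 11 fitted in liver, none was higher and 1 lower with no overlap, and the median log2 fold change was -0.12. The gene that was lower was Elovl3, a fatty acid elongase, at 307, 481 and 338 CPM in control and at 203, 190 and 210 CPM in heat-stressed liver, a log2 fold change of -0.90 (SE 0.21). Of 16 interferon-induced genes, 6 were higher with no overlap (Irf7, Oasl2, Mx1, Cxcl9, Cxcl10 and Psmb8), none was lower, and the median was 0.50. Over all liver genes fitted, 5.38% were higher and 5.73% lower with no overlap. Cxcl9, a chemokine for T cells, was at 8.84, 11.2 and 19.8 CPM in control and at 72.2, 25.6 and 22.8 CPM in heat-stressed liver, a log2 fold change of 1.61 (SE 0.48). Heat stress replicate 1, the library with the most T and NK cell transcripts, stood far above the other two, and the log2 fold change of Cxcl9 was 0.86 without it. Irf7 had a log2 fold change of 1.14 (SE 0.19). The T and NK cell markers given above were also higher in the heat stress libraries, and their part in these values was not tested.

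In brain, no gene of any of these lists had an adjusted p under 0.05 in edgeR's test. At an unadjusted p under 0.05, against 10% of all genes in each direction, 3 of 6 SOCS box partners were higher (Elob, Eloc and Rnf7), with a median log2 fold change of 0.30 over the list. In the same test 2 of 5 acute phase genes were lower, 2 of 11 early response genes were lower and 2 of 12 interferon-induced genes were higher, and the remaining lists had at most 1 gene in each direction. Eloc, elongin C, was at 143 ± 11.6 CPM in control and 191 ± 26.3 CPM in heat-stressed brain, a log2 fold change of 0.42 (adjusted p = 0.172). Stat3 was at 48.5, 48.6 and 48.2 CPM in control and at 38.7, 34.3 and 35.6 CPM in heat-stressed brain, with a log2 fold change of -0.42 (SE 0.10, adjusted p = 0.170). Every heat stress library was below every control library for Stat3, as for 12% of all brain genes. The same held for Jak1, 1 of 4 JAK genes, at -0.33 (adjusted p = 0.196), and for 3 of 21 receptor genes, of which 1 other was higher with no overlap. Among the 3 was Il6st, the gp130 receptor chain, at -0.40 (adjusted p = 0.170). Of 10 other inhibitors 3 were lower with no overlap and none was higher, and of 5 cytokine genes 2 were lower and 2 higher. The median log2 fold change in brain was -0.17 over 4 JAK genes, -0.12 over 21 receptor genes and -0.39 over 5 acute phase genes, with -0.0030 over all genes. Early response gene Egr1 had a log2 fold change of -0.75 and the interferon target Ifit1 one of 1.13, each with an adjusted p of 0.170. The remaining named genes of the lists were Lif at -0.97 (adjusted p = 0.238), Prlr at -1.01 (0.349), Usp18 at 0.41 (0.486), Rnf7 at 0.44 (0.199), Lbp at -0.84 (0.192), Cyp7b1 at 0.33 (0.253) and Cdkn1a at -0.42 (0.325), as log2 fold change and adjusted p.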

How the data were processed

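Brain and liver messenger RNA was sequenced from 3 control and 3 heat stress libraries per tissue (stranded, oligo-dT selected). The authors deposited raw read counts for 25239 gene symbols. Their processing notes name FastQC 0.11.9, Trimmomatic 0.39, HISAT2 2.2.1, featureCounts of Subread 2.0.1, DESeq2 1.22.2 and mm10, while the methods also describe Tophat2 and HTSeq. The annotation release, the strand setting and the treatment of reads shared between genes are not given in the sources used here. Deposited tables of the authors' comparisons (fold changes and p-values) were not used. Columns of single libraries left unused numbered 0.

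Counts were analysed in R 4.3.3 with edgeR 4.0.16 (TMM, filterByExpr with minimum count 10 and minimum total 15, robust quasi-likelihood fit, Benjamini-Hochberg adjustment over all genes tested, call at an adjusted p under 0.05), and DESeq2 1.42.0 was an alternative. Brain had 14806 and liver 12296 genes in the fit. The SE of a log2 fold change was its size divided by the root of the F statistic. An exact permutation test of 3 against 3 libraries cannot go below p = 0.1 and was not used. Total counts of 10466198 to 15609040 limit members with few reads, such as Socs1. The labels do not say that libraries are separate mice. No pair of replicates was a duplicate.

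The members and the gene lists were chosen with earlier results of these data known. Named are all 10 members, the 5 genes most like Socs3 and Pim3 in liver, and for each list reported as a whole the gene with the largest change in each tissue. Further list genes (Il6, Stat3, Sh2b3, Cebpb, Cebpd, Junb, Orm3, Hamp, Crp, Irf7 and other interferon targets, Elob, Eloc in brain and Il6st) were named after their values were seen. Pim2 was named in the same way. Exon lengths were computed from GENCODE M21 (GRCm38, that is, mm10). Promoters came from the RefSeq table on GRCm38.p6, with entries for 6 of the 10 members. The alternatives tried were DESeq2, its size factors or upper-quartile factors in edgeR, a joint fit of the 12 libraries, other filters on low counts, the replicate number as a block, the column suffix as a covariate, the muscle-bearing libraries left out, and each library left out in turn. Some genes of the pathway lists are not reported here.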

Additional observations from a re-analysis of the deposited data

Results flagged for a closer look

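For 3 members, every heat stress library lay on one side of the control mean in liver and on the other side in brain. The difference between the tissues was not tested by this criterion. It was met by 2 of the 9 members tested in both tissues and by 12.6% of all 11322 genes tested in both. The median log2 ratio of the heat stress libraries to the control mean was 1.285 in liver and -0.2813 in brain for Cish. For Socs5 it was -0.1223 in liver and 0.2621 in brain. For Socs1 it was 0.6579 in liver and -0.589 in brain, from at most 9 reads per library, too few for a difference to be seen at this depth.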

How the results depend on the processing

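In liver, Socs3, Cish and Pim3 were higher under heat stress in every alternative run. With each library left out in turn, the log2 fold change was 1.16 to 1.63 for Socs3, 1.04 to 1.53 for Cish and 0.87 to 1.12 for Pim3, and the number of members above a log2 fold change of 1 was 2 to 4, with 4 without control replicate 2. Small differences changed sign, namely Socs4 (-0.21 to 0.17) and Socs6 (-0.25 to 0.066) in liver, Socs6 (-0.066 to 0.16) and Pim3 (-0.089 to 0.049) in brain, and the liver minus brain difference of Socs4 (-0.068 to 0.42) and Socs6 (-0.26 to 0.0090). With the column suffix as a covariate, Socs4 in liver was at 0.12. The cause was not tested.

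In brain no alternative called a member, although DESeq2 called 540 genes where edgeR called 0. DESeq2 gave no adjusted p for 3 members. Same-numbered control and heat stress libraries of liver had correlations of -0.584, -0.509 and -0.0891 across genes, and those of brain -0.289, 0.19 and -0.2. Levels were first centered on the mean of their own group, which ties these values to each other, so they cannot decide whether numbers pair samples. Both muscle-bearing liver libraries, control 1 and heat stress 2, correlated at 0.553. Control liver and control brain libraries of the same number gave 0.218, 0.181 and 0.0938, and each correlated best with its own number, which is a hint from the data only, while heat stress libraries gave 0.0226, -0.12 and 0.0074. With the replicate number as a block, the log2 fold change in liver was 1.37 for Socs3, 1.27 for Cish and 0.95 for Pim3, and in brain the adjusted p was 0.278 for Pim1 and 0.256 for Socs5. In control mice, the block gave Socs6 an adjusted p of 0.0269 between tissues. In heat stress mice it gave 0.0608. Depth limits Socs1 most, with at most 9 reads in a library.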
